A study of Mus musculus with 12 samples.

Results

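Border-associated macrophages were followed through 10 marker genes, *Mrc1*, *Pf4*, *Cd163*, *Lyve1*, *F13a1*, *Ms4a7*, *Cbr2*, *Stab1*, *Ms4a6c* and *Dab2*, taken by symbol from the 47643 genes of the count matrix. The question was how these markers differed between 2 sorted cell populations of the old mouse brain, RFPneg and RFPpos. All samples came from 5 male p16-3MR mice on a C57BL/6 background, aged 113, 115, 116, 116 and 116 weeks (mice 1 to 5). The 3MR transgene of these mice is expressed from the p16 promoter and encodes a single fusion protein with a red fluorescent part, a luciferase part for imaging and a viral thymidine kinase part. The sort thus reads the transgene and not p16 itself. The paper reports that cells sorted for high red fluorescence were enriched for cells with much p16 transcript. Brains were dissociated with a cold protease and cleaned on Percoll, and viable nucleated cells with low (RFPneg) or high (RFPpos) red fluorescence were collected. Each mouse gave 1 sample of each population, and no transgene-free group was part of the comparison.

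Border-associated macrophages are the resident macrophages of the meninges, of the spaces around blood vessels and of the choroid plexus, and microglia are those of the brain tissue itself. The border cells are known for scavenger and endocytic receptors that sample fluid and blood-borne material, and some of them carry MHC class II molecules that present antigen to T cells. They share a broad macrophage program with microglia, and *Stab1*, *Ms4a6c* and *Dab2* were taken here as members that microglia can also express.

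Libraries were made from the 3′ ends of transcripts, so that a transcript gives 1 tag whatever its length and levels of different genes can be set side by side without a length correction. The counts on genes were 177287, 196103, 415834, 248471 and 299680 in RFPneg1 to RFPneg5 and 222560, 289713, 223052, 250482 and 242798 in RFPpos1 to RFPpos5. Levels of genes are given as CPM, counts per 1000000 gene counts after scaling by the trimmed mean of M values (TMM), and sums over a list as ppm, counts per 1000000 gene counts without scaling. The 10 markers held 1004 counts over all samples, 0.0391% of the gene counts, and their totals ran from 14 counts (*Cbr2*) to 189 (*Dab2*). A count of 0 in a library allows up to 3 counts, which is 7.07 CPM in the deepest library and 16.5 CPM in the shallowest, and this limit covers counting error only. Such depth leaves wide errors on the weaker markers.

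All 10 markers were detected in both populations, and the RFPneg and RFPpos values of every marker overlapped. The share of all genes with overlapping values is not given here, so nothing about the markers is read from this. Of the 9 markers with at least 15 counts in all, 0 were higher in RFPpos and 1, *Dab2*, was lower (edgeR's quasi-likelihood test with the mouse as a block, Benjamini-Hochberg adjusted p under 0.05). Over all 11103 genes tested, 5.2% were called higher and 8.2% lower, so that a single member lower among 9 lies near the background and is not a result about the markers as a group. Of the 8807 genes whose totals lay in the members' range, 1.46% were called higher and 7.09% lower. At an unadjusted p under 0.05 in the same test, 0 members were higher and 2 were lower, beside 9.29% and 13.8% of all genes tested, and nothing about the markers is read from these counts. At an adjusted p under 0.05, 0 were higher with the edgeR likelihood ratio test, DESeq2 or limma-voom, though *Cd163* had an unadjusted p of 0.0488 with the likelihood ratio test and 0.0412 with limma-voom. The log2 fold changes of the 9 markers ran from −1.43 (*F13a1*) to 1.52 (*Cd163*), with 4 above 0 and a median of −0.18. Over all 11103 genes tested, 5007 were above 0 and the median was −0.10. When libraries were scaled to microglial genes, 1 marker was above 0, beside a median of −1.23 over all genes. In such bulk samples, fewer cells of a type and less RNA of a gene in each cell cannot be told apart.

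**Figure D1:**
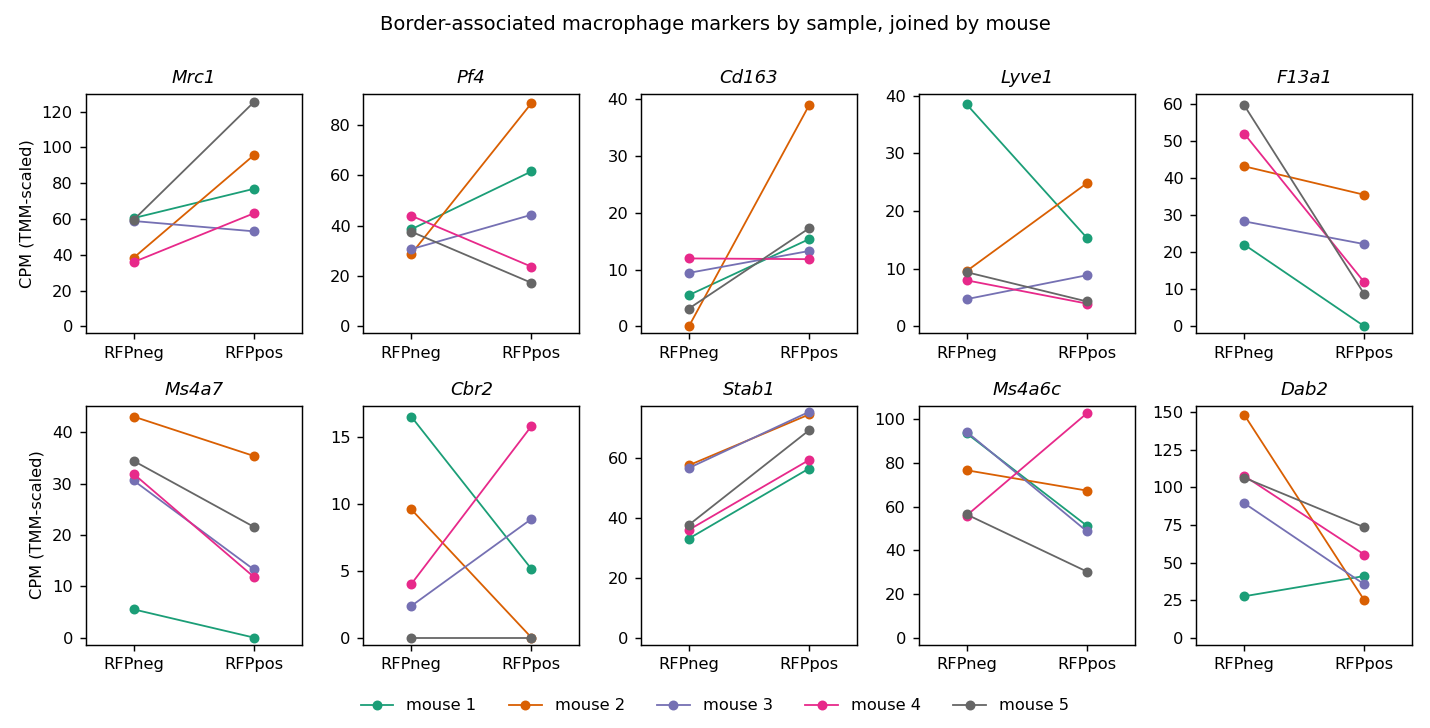
Level of each of the 10 markers in CPM (TMM-scaled, vertical axis, a separate scale for each gene) in the RFPneg and RFPpos sample of each mouse, with 1 point per sample and 1 line per mouse. *Stab1* lines slope up in 5 of 5 mice and *F13a1* and *Ms4a7* lines slope down in 5 of 5, while those of *Pf4*, *Lyve1* and *Cbr2* cross.

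Promoters are shown for 4 markers, *Mrc1* and *Stab1*, whose mean CPM was higher in RFPpos, and *F13a1* and *Dab2*, whose mean CPM was lower. Of these, only *Dab2* was called. The sequences are from RefSeq on GRCm38.p6, and each runs 5′ to 3′ from 250 bases before to 50 bases after the gene's start. A promoter was at hand for 9 of the 10 members, all but *Lyve1*. Capitals mark GAGGAAG on either strand, the core letters bound by PU.1, a transcription factor of the macrophage lineage. *Mrc1* lies at chr2:14229164-14229463 (plus strand), *Stab1* at chr14:31168592-31168891 (minus strand), *F13a1* at chr13:37050195-37050494 (minus strand) and *Dab2* at chr15:6299539-6299838 (plus strand).
Mrc1: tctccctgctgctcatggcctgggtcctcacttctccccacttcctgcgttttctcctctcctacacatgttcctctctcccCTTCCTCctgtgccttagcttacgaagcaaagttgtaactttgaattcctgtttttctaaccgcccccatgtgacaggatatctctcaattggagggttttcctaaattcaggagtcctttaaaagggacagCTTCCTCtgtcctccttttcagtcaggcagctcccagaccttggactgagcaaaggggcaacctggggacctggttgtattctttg
Stab1: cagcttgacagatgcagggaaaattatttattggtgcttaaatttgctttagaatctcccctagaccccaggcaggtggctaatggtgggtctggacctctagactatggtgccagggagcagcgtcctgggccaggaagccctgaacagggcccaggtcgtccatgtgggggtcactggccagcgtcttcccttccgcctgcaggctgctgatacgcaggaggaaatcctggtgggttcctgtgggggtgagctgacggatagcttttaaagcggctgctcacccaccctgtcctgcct
F13a1: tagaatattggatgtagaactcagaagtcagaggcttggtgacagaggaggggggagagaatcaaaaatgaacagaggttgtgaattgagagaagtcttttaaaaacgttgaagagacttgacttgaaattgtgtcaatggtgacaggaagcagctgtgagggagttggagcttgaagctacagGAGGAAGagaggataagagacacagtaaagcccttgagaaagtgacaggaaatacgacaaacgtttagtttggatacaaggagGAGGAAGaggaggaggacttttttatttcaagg
Dab2: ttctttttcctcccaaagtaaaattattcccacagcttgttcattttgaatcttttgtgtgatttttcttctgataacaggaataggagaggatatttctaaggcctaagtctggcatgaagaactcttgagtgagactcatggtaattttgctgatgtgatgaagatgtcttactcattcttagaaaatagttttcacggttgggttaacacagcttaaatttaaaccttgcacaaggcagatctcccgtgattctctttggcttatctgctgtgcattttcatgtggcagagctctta
The core letters begin 168 and 36 bases before the start of *Mrc1*, and 66 bases before and 17 bases after that of *F13a1*, and they are not in the *Stab1* and *Dab2* windows. Among the 9 members with a promoter, 4 held them (*Mrc1*, *Pf4*, *F13a1* and *Cbr2*), as did 13.6% of all 32851 promoters. TGCTGA, the half-site letters bound by MAF factors, lay on either strand in 3 member promoters (*Cbr2*, *Stab1* and *Dab2*) and in 19.5% of all promoters, and TATAAA lay in 0 members and 13.6% of all. Members with and without GAGGAAG or TGCTGA had log2 fold changes on both sides of 0, and a match describes the letters only.

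*Mrc1* encodes the mannose receptor, an endocytic receptor for glycoproteins. It stood at 60.5, 38.3, 58.9, 35.9 and 59.5 CPM in RFPneg1 to RFPneg5 and at 76.9, 95.6, 53.1, 63.1 and 125 CPM in RFPpos1 to RFPpos5. RFPpos5 and RFPpos2 were the highest of all samples, and RFPpos3, the lowest of its group, lay inside the RFPneg range. The group means were 50.6 ± 12.4 and 82.8 ± 28.6 CPM (SD, n = 5 each), with a higher value in RFPpos in 4 of 5 mice. The log2 fold change of *Mrc1* was 0.68 (SE 0.36, 95% confidence interval −0.02 to 1.38), which did not pass the test (edgeR adjusted p = 0.240) and was −0.46 when scaled to microglial genes.

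*Stab1* encodes stabilin-1, a scavenger receptor that takes up modified lipoproteins and matrix fragments. Its levels were 33.0, 57.5, 56.5, 35.9 and 37.6 CPM in RFPneg1 to RFPneg5 and 56.4, 74.4, 75.3, 59.2 and 69.1 CPM in RFPpos1 to RFPpos5. The RFPpos value was the higher in every mouse, and the groups overlapped only through RFPneg2 and RFPneg3, which lay just above RFPpos1. With means of 44.1 ± 11.9 and 66.9 ± 8.67 CPM (SD, n = 5 each), the log2 fold change was 0.61 (SE 0.38, 95% interval −0.15 to 1.36) and the edgeR adjusted p 0.370, so that the difference did not pass the test, and it was −0.55 when scaled to microglial genes. Under TMM scaling an increase of up to 1.36 log2 units lies within this interval.

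*Cd163*, the receptor that clears hemoglobin bound to haptoglobin, had 9 counts in RFPneg and 24 in RFPpos. Its levels were 5.50, 0, 9.42, 11.97 and 3.13 CPM in RFPneg1 to RFPneg5 and 15.4, 39.0, 13.3, 11.8 and 17.3 CPM in RFPpos1 to RFPpos5. RFPpos2 was far above the rest, RFPneg2 of the same mouse held 0 counts, which allows up to 14.4 CPM, and the other 8 samples overlapped. The log2 fold change of 1.52 (SE 0.90, 95% interval −0.25 to 3.28) was the highest of the members and did not pass the test (edgeR adjusted p = 0.320, higher in 4 of 5 mice). It was 0.91 without mouse 2.

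*Lyve1*, a hyaluronan receptor that marks a subset of border macrophages and also lymphatic vessels, held 16 counts in RFPneg and 14 in RFPpos. Its levels were 38.5, 9.58, 4.71, 7.98 and 9.40 CPM in RFPneg1 to RFPneg5 and 15.4, 24.8, 8.85, 3.95 and 4.32 CPM in RFPpos1 to RFPpos5. RFPneg1 and RFPpos2 stood above the other 8 samples, so that no order of the groups was seen. The log2 fold change was −0.18 (SE 0.91, edgeR adjusted p = 0.946) and 0.18 without mouse 1, with an interval of −1.97 to 1.60 that holds large differences in either direction.

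*Dab2* encodes an endocytic adaptor that links lipoprotein receptors to clathrin and was the only marker called. Its levels were 27.5, 148, 89.5, 108 and 106 CPM in RFPneg1 to RFPneg5 and 41.0, 24.8, 35.4, 55.3 and 73.4 CPM in RFPpos1 to RFPpos5. In 4 of 5 mice the RFPpos sample was the lower, while in mouse 1 RFPneg1 was the lowest of its group and lay below RFPpos1. *Dab2* fell by 1.04 on the log2 scale in RFPpos (SE 0.36, 95% interval −1.75 to −0.34, edgeR adjusted p = 0.0321), from a mean of 95.9 ± 44.0 to 46.0 ± 18.9 CPM (SD, n = 5 each), and the groups overlapped. The call was lost with DESeq2 (log2 fold change −1.09, adjusted p = 0.186), with counts thinned to the smallest library (−1.06, 0.0626) and without mouse 3 (−0.996, edgeR adjusted p = 0.119) or mouse 4 (−1.08, 0.0765), where the fold stayed about as large, and without mouse 2 (−0.70, 0.349), where it was smaller. Over all alternatives the adjusted p ran from 6.55e-08 to 0.349.

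*F13a1* encodes the A subunit of coagulation factor XIII, a transglutaminase made by macrophages, monocytes and platelets. It stood at 22.0, 43.1, 28.3, 51.9 and 59.5 CPM in RFPneg1 to RFPneg5 and at 0, 35.4, 22.1, 11.8 and 8.64 CPM in RFPpos1 to RFPpos5. Every mouse had the lower value in RFPpos, and RFPpos1 held 0 counts, which allows up to 15.4 CPM. The difference was smallest in mice 2 and 3, whose RFPpos values lay within the RFPneg range. The group means were 40.9 ± 15.7 and 15.6 ± 13.6 CPM (SD, n = 5 each), and the log2 fold change was −1.43 (SE 0.57, 95% interval −2.56 to −0.31). With an unadjusted p of 0.0125 and an edgeR adjusted p of 0.0803, *F13a1* did not pass the test, though it did with the edgeR likelihood ratio test (adjusted p = 0.0458). Over all alternatives its adjusted p ran from 4.03e-05, scaled to microglial genes, to 0.288, without mouse 5.

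*Pf4*, the chemokine CXCL4, is made by border macrophages and stored in platelets. Its levels were 38.5, 28.7, 30.6, 43.9 and 37.6 CPM in RFPneg1 to RFPneg5 and 61.5, 88.5, 44.3, 23.7 and 17.3 CPM in RFPpos1 to RFPpos5. The RFPneg samples lay close together and the RFPpos samples were spread on both sides of them, with means of 35.9 ± 6.18 and 47.1 ± 29.0 CPM (SD, n = 5 each). The log2 fold change was 0.24 (SE 0.46, edgeR adjusted p = 0.841) and turned to −0.17 without mouse 2.

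*Cbr2*, a carbonyl reductase, had 7 counts in each population, below the 15 counts needed for a test. Its values were 16.5, 9.58, 2.36, 3.99 and 0 CPM in RFPneg1 to RFPneg5 and 5.12, 0, 8.85, 15.8 and 0 CPM in RFPpos1 to RFPpos5. Mouse 5 had 0 counts in both samples, which allows up to 9.40 CPM in RFPneg5 and 12.96 CPM in RFPpos5, so that no difference was detectable at this depth. With all 18571 detected genes in the fit the log2 fold change was −0.13 with an SE of 1.49.

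*Ms4a7* and *Ms4a6c* belong to the MS4A family of membrane proteins, several of which are expressed in myeloid cells. *Ms4a7* stood at 5.50, 43.1, 30.6, 31.9 and 34.5 CPM in RFPneg1 to RFPneg5 and at 0, 35.4, 13.3, 11.8 and 21.6 CPM in RFPpos1 to RFPpos5. Mouse 1 was the lowest of each population, with 0 counts in RFPpos1, and every mouse had the lower value in RFPpos. The log2 fold change of *Ms4a7* was −0.90 (SE 0.63, edgeR adjusted p = 0.432) with an interval of −2.13 to 0.33. *Ms4a6c* was at 93.5, 76.6, 94.2, 55.9 and 56.4 CPM in RFPneg1 to RFPneg5 and at 51.2, 67.3, 48.7, 103 and 30.2 CPM in RFPpos1 to RFPpos5. RFPpos4 held the highest value of all 10 samples and RFPpos5 the lowest. The log2 fold change of *Ms4a6c* was −0.36 (SE 0.35, edgeR adjusted p = 0.625, lower in 4 of 5 mice).

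Of the 18 MS4A genes in the family list, 12 had a count and 6 were tested, with 0 called higher and 1 lower with edgeR (1 and 2 at an unadjusted p under 0.05). The most abundant was *Ms4a6d*, with 95 counts in RFPneg and 130 in RFPpos (log2 fold change 0.68, SE 0.31, edgeR adjusted p = 0.156). *Ms4a4b*, a lymphocyte member of the family, was the gene called, at 91.7 ± 44.9 CPM in RFPneg and 3.62 ± 5.67 in RFPpos (SD, n = 5 each; log2 fold change −4.61, SE 0.59, edgeR adjusted p = 7.31e-12). Among 12 genes related in sequence or function to the members, such as other mannose receptor family members, carbonyl reductases and stabilin-2, 5 were tested and 0 were called in either direction with edgeR, with 0 higher and 1 lower at an unadjusted p under 0.05. The most abundant of these relatives was *Cd44*, a hyaluronan receptor like *Lyve1*, with 42 counts in RFPneg and 19 in RFPpos.

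The order of the mean levels differed between the populations. In RFPneg, *Dab2* (95.9 CPM) and *Ms4a6c* (75.3) led, followed by *Mrc1* (50.6), *Stab1* (44.1), *F13a1* (40.9), *Pf4* (35.9), *Ms4a7* (29.1), *Lyve1* (14.0), *Cbr2* (6.48) and *Cd163* (6.01). In RFPpos, *Mrc1* (82.8) and *Stab1* (66.9) led, followed by *Ms4a6c* (60.0), *Pf4* (47.1), *Dab2* (46.0), *Cd163* (19.3), *Ms4a7* (16.4), *F13a1* (15.6), *Lyve1* (11.5) and *Cbr2* (5.95). Neighbors in each order differed by less than the larger of their SDs, except for *Ms4a6c* and *Mrc1* and for *Ms4a7* and *Lyve1* in RFPneg and for *Dab2* and *Cd163* in RFPpos.

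Microglial genes gave a second scale for the markers, on which a value asks whether a marker differed from those genes. All 12 genes of the microglia list rose in RFPpos (median log2 fold change 1.30), among them *Cx3cr1*, the fractalkine receptor and the most abundant of them (1.01, SE 0.18, edgeR adjusted p = 8.08e-07, higher in 5 of 5 mice), and *Fcrls* (1.75, SE 0.21, adjusted p = 1.45e-13). *Selplg* (1.42, SE 0.19) and *Tmem119* (1.32, SE 0.20) had the next smallest p-values. The 12 genes of macrophages in general rose as well (median 1.21), led by *Laptm5* (1.79, SE 0.19, edgeR adjusted p = 7.3e-17), *Ctss*, the most abundant (1.34, SE 0.18, adjusted p = 1.75e-11) and *Csf1r* (1.35, SE 0.18). The microglia list summed to 10491, 6043, 6695, 6005 and 9267 ppm in RFPneg1 to RFPneg5 and 18539, 14249, 15759, 15015 and 14580.0 ppm in RFPpos1 to RFPpos5, higher in 5 of 5 mice.

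With library sizes taken from the microglia list, the median of all genes shifted by −1.13 to −1.23, 0.144% of the 11103 genes were called higher and 49.5% lower. On this scale 4 of the 9 tested members were lower and 0 higher with edgeR, a share near that of all genes and so not a result about the markers. The median of the members was −1.29, beside 0.05 for the 12 genes of macrophages in general. The 4 were *F13a1* (log2 fold change −2.59, adjusted p = 4.03e-05), *Dab2* (−2.19, adjusted p = 6.55e-08), *Ms4a7* (−2.05, adjusted p = 0.00361) and *Ms4a6c* (−1.53, adjusted p = 1.89e-04). *Mrc1*, *Stab1* and *Pf4*, above 0 under TMM scaling, were below 0 here at −0.46 (adjusted p = 0.296), −0.55 (0.241) and −0.92 (0.0880), and *Lyve1* was at −1.29 (0.227). *Cd163* was the single member still above 0, at 0.41 with an interval of −1.43 to 2.25. Of the 3 members taken here as shared with microglia, *Dab2* and *Ms4a6c* were called lower on this scale and *Stab1* was not. With a median of −1.23 and 49.5% of all genes called lower, nothing particular to these members is read from the calls.

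**Figure D2:**
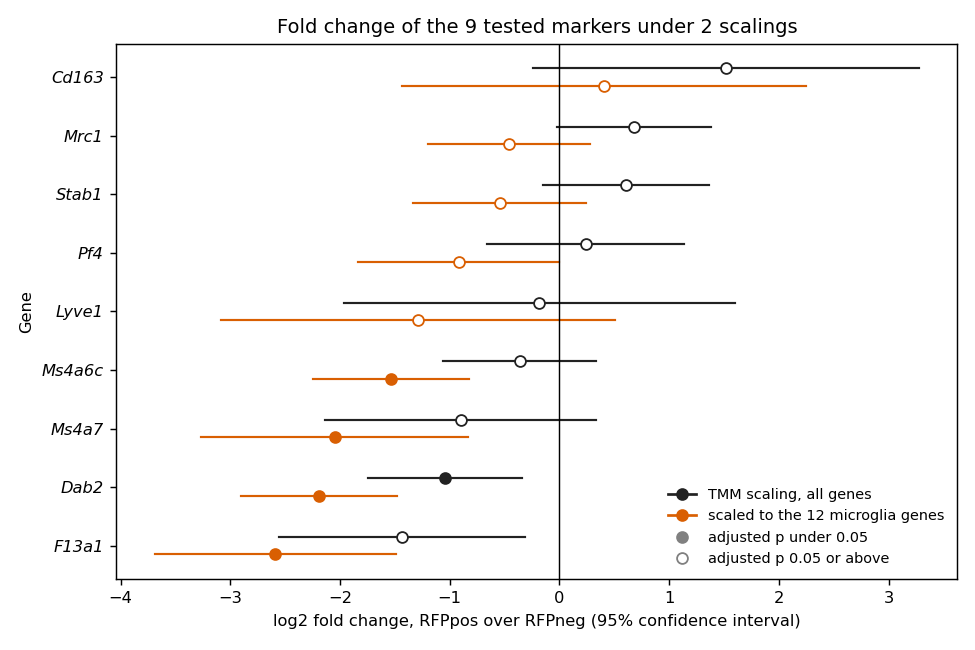
Log2 fold change of RFPpos over RFPneg (horizontal axis) for the 9 tested markers, with bars for the 95% confidence interval, under TMM scaling (black) and scaled to the 12 microglia genes (orange), with filled points for an adjusted p under 0.05. *Dab2* is filled under both scalings, *F13a1*, *Ms4a7* and *Ms4a6c* under the microglia scaling only, and *Mrc1*, *Stab1* and *Pf4* change sides of 0.

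Summed over the 10 members, the share of gene counts was 349.7, 484, 414, 390.4 and 430.5 ppm in RFPneg1 to RFPneg5 and 283, 473, 327, 363 and 350.1 ppm in RFPpos1 to RFPpos5. Each mouse had the lower share in RFPpos and the groups overlapped, with means of 414 ± 49.8 and 359 ± 70.4 ppm (SD, n = 5 each) and a mean log2 ratio within mice of −0.22 (SD 0.14). No test was made of this sum. Without *Stab1*, *Ms4a6c* and *Dab2* the mean log2 ratio was −0.04. Per 1000 counts on the microglia list, the members had 33.3, 80.2, 61.8, 65.0 and 46.5 counts in RFPneg1 to RFPneg5 and 15.3, 33.2, 20.8, 24.2 and 24.0 in RFPpos1 to RFPpos5. Here the RFPpos value was the lower in each mouse and RFPpos2, the highest of its group, lay just below RFPneg1, the lowest of the other. The mean log2 ratio within mice was −1.27 on this scale, beside a median log2 fold change of −1.23 over all genes scaled to the microglia list. Nothing particular to the markers is read from this separation.

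**Figure D3:**
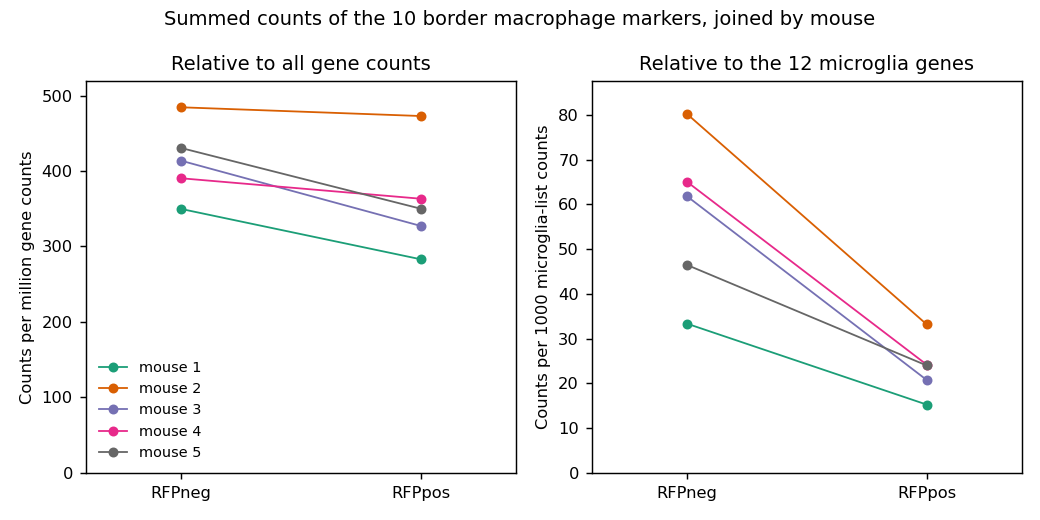
Summed counts of the 10 markers in ppm of gene counts (left) and per 1000 counts on the 12 microglia genes (right) in each sample, with 1 line per mouse and both axes from 0. The RFPneg and RFPpos means are 414 and 359 on the left, where the groups overlap, and 57.4 and 23.5 on the right, where they do not. The microglia list, the denominator on the right, had means of 7700 ppm in RFPneg and 15628 ppm in RFPpos.

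A wider list of 31 genes known from border macrophages, several of them shared with microglia or monocytes, was read beside the members. Of 24 tested, 4 rose and 3 fell, with a median log2 fold change of 0.06 (−1.10 when scaled to microglial genes, where 0 were called higher and 11 lower with edgeR). Over all genes the shares called were 5.2% higher and 8.2% lower under TMM scaling and 0.144% and 49.5% on the microglia scale, so that the 11 lie near the background and nothing particular to the list is read from these counts. Among those that rose were *Maf*, a transcription factor of macrophages (1.17, SE 0.19, edgeR adjusted p = 7.93e-08), *Hpgd*, which breaks down prostaglandins (0.79, SE 0.23, adjusted p = 0.00887), and *Igfbp4* (0.85, SE 0.30, adjusted p = 0.0351). On the microglia scale *Maf* was at 0.01, and *Igfbp4* and *Hpgd* were below 0 at −0.31 and −0.36. The genes that fell were *Cd38*, an enzyme that consumes NAD (−3.47, SE 0.81, adjusted p = 4.62e-04), *Mgl2*, a lectin of macrophages and dendritic cells (−2.33, SE 0.71, adjusted p = 0.0122), and *Lyz2*, lysozyme (−0.65, SE 0.20, adjusted p = 0.0128), each lower in 5 of 5 mice. *Apoe*, the most abundant of the list, stood at 1375 ± 246 CPM in RFPneg and 1547 ± 615 in RFPpos (SD, n = 5 each; log2 fold change 0.07, SE 0.19). *Siglec1*, the sialic acid receptor of border macrophages, had 2 counts in RFPneg and 0 in RFPpos, and *Folr2*, a folate receptor, had 1 and 3. The list summed to 4439, 5115, 4961, 4262 and 4812 ppm in RFPneg1 to RFPneg5 and 4929, 6493, 6173, 6551 and 6141 ppm in RFPpos1 to RFPpos5, higher in RFPpos in 5 of 5 mice.

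MHC class II genes, which mark a subset of border macrophages and also dendritic cells, were mostly lower in RFPpos. Of 6 tested, 4 fell and 1 rose. *H2-Aa*, the most abundant, went from 565 ± 89.0 to 71.3 ± 53.9 CPM (SD, n = 5 each; log2 fold change −3.06, SE 0.25, edgeR adjusted p = 4.58e-27), and *H2-Eb1* (−2.89, SE 0.32), *H2-Ab1* (−2.64, SE 0.25) and *Cd74* (−3.01, SE 0.37) also fell. *H2-DMa*, which helps to load peptides, rose (0.74, SE 0.24, edgeR adjusted p = 0.0176) and was at −0.41 relative to the microglia list. The summed list went from 1833, 1193, 1626, 1875 and 1625 ppm in RFPneg1 to RFPneg5 to 377, 507, 542, 731 and 428 ppm in RFPpos1 to RFPpos5, with no overlap. Beside these genes *Dab2* also fell, while *Mrc1* and *Stab1* had log2 fold changes above 0 under TMM scaling and below 0 on the microglia scale. The part of antigen-presenting cells in the members' values was not tested.

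Several members are also expressed outside border macrophages, so the lists of those cells were read beside them. *F13a1* and *Ms4a7* are known from monocytes, whose list of 9 genes had 0 genes higher and 6 lower of 7 tested with edgeR (0 and 7 at an unadjusted p under 0.05). Its sum was 282, 403, 435, 338 and 290.3 ppm in RFPneg1 to RFPneg5 and 17.97, 20.7, 44.8, 16.0 and 20.6 ppm in RFPpos1 to RFPpos5. *Ccr2*, the chemokine receptor that leads the list, had 114 counts in RFPneg and 11 in RFPpos, and *S100a4* had 107 and 2. *Ly6c2*, *Chil3*, *Treml4* and *Ear2* had 0 counts in RFPpos, beside 59, 73, 1 and 5 in RFPneg. *Treml4* and *Ear2* had fewer than the 15 counts needed for a test. The mean *F13a1* level was 40.9 CPM in RFPneg and 15.6 CPM in RFPpos. The mean monocyte sum, which is not TMM-scaled, was 350 ± 67.8 and 24.0 ± 11.8 ppm (SD, n = 5 each). The part of monocytes in the *F13a1* and *Ms4a7* values was not tested.

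*Dab2* and *Stab1* are also known from endothelial cells, and *Dab2* from fibroblasts. All 10 blood endothelium genes fell, and their sum was 1574, 5074, 5173, 6777 and 4054 ppm in RFPneg1 to RFPneg5 and 121, 189.8, 229, 327 and 222 ppm in RFPpos1 to RFPpos5. *Flt1*, the most abundant, went from 1240 ± 484 to 33.8 ± 20.0 CPM (SD, n = 5 each; log2 fold change −5.18, SE 0.26, edgeR adjusted p = 7.1e-55), *Slco1a4* stood at −6.51 (SE 0.34), *Slc2a1* at −3.59 (SE 0.26), and *Emcn* had 0 counts in RFPpos. RFPneg1 was the lowest RFPneg sample for this list. Of the members, it was the lowest of its group for *Dab2*, *Stab1*, *F13a1* and *Ms4a7* and the highest for *Mrc1*, *Lyve1* and *Cbr2*. The fibroblast list of 7 genes had 0 higher (also 0 at an unadjusted p under 0.05) and 3 lower of 5 tested and summed to 265, 326, 277, 402 and 167 ppm in RFPneg1 to RFPneg5 and 4.49, 72.5, 148, 184 and 12.4 ppm in RFPpos1 to RFPpos5. *Igf2*, its most abundant gene, fell by 2.33 (SE 0.41), *Dcn* by 1.71 (SE 0.43) and *Col1a2* by 1.38 (SE 0.50). *Lum* and *Col3a1*, which were not tested, had 6 and 8 counts in RFPneg and 0 in RFPpos. *Stab1*, at a log2 fold change of 0.61, was not called lower beside these lists, and the part of endothelial cells and fibroblasts in the *Dab2* values was not tested.

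*Pf4* is a platelet gene as well, and the platelet list had 21 counts in RFPneg and 24 in RFPpos. It summed to 45.1, 0, 0, 16.1 and 30.0 ppm in RFPneg1 to RFPneg5 and to 31.5, 17.3, 13.4, 35.9 and 0 ppm in RFPpos1 to RFPpos5. *Gp1ba*, *Gp6* and *Tubb1* had 0 counts in all samples, *Ppbp*, a chemokine stored beside *Pf4*, had 2 counts in all, and *Gp9*, the most abundant and the single gene tested, had 17 in RFPneg and 21 in RFPpos (edgeR adjusted p = 0.788). *Pf4* itself had 49 and 57 counts, and the part of platelets in the *Pf4* values was not tested. *Lyve1* and *Mrc1* are shared with lymphatic endothelium, whose list summed to 84.6, 91.8, 84.2, 101 and 113 ppm in RFPneg1 to RFPneg5 and 13.5, 41.4, 40.3, 55.9 and 49.4 ppm in RFPpos1 to RFPpos5. There *Prox1*, the most abundant and also a gene of other brain cells, fell by 1.39 (SE 0.51, edgeR adjusted p = 0.0484), *Flt4* had 37 counts in RFPneg and 0 in RFPpos, and *Ccl21a* and *Mmrn1* had 0 counts throughout. *Pdpn*, the other gene of the list, had 24 counts in RFPneg and 27 in RFPpos (log2 fold change 0.45, SE 0.72). The part of lymphatic cells in the *Lyve1* and *Mrc1* values was not tested.

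No gene of the remaining lists was called higher with edgeR, and 0 were higher at an unadjusted p under 0.05. The dendritic cell list had 2 tested genes and 0 calls with edgeR. Both had 25 counts in all, *Cd209a* with 21 in RFPneg and 4 in RFPpos (edgeR adjusted p = 0.451) and *Zbtb46* with 24 and 1, the latter lower at an unadjusted p under 0.05 (adjusted p = 0.0635). All 5 tested neutrophil genes fell, with *S100a8* at −6.29 (SE 0.28), *S100a9* at −5.53 (SE 0.28) and *Camp* at −5.21 (SE 0.46). Of the choroid plexus epithelium list, 1 of 4 tested genes fell (*Ttr*, by 1.91, SE 0.23). All 7 oligodendrocyte genes fell, with *Mal* at −3.88 (SE 0.30), *Mobp* at −3.65 (SE 0.39) and *Mag* at −3.05 (SE 0.38). Of 6 astrocyte genes 2 fell, *Slc1a2* by 0.66 (SE 0.19) and *Gja1* by 0.78 (SE 0.25). *Slc1a2* was lower in 5 of 5 mice and *Gja1* in 3 of 5, with *Gja1* at 10.2 CPM in RFPpos1 and 95.6 to 316 CPM in the other RFPpos samples. The astrocyte sum was higher in RFPpos in 3 of 5 mice. It was 818 ppm in RFPpos1 and 2313 to 4392 ppm in the other RFPpos samples. The 10 markers, for comparison, had mean shares of 414 and 359 ppm.

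**Figure D4:**
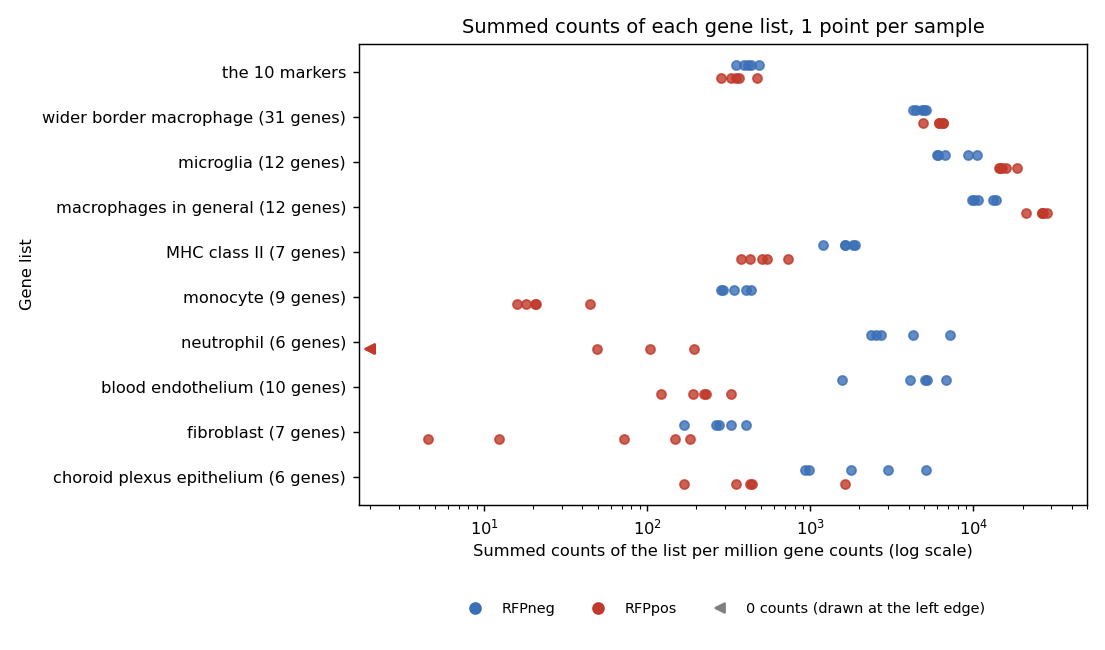
Summed counts in ppm of gene counts (log scale, horizontal axis) of the 10 markers and of 9 other gene lists, with 1 point per sample, blue for RFPneg and red for RFPpos. The 10 markers overlap between the populations (283 to 484 ppm), the microglia and general macrophage lists lie to the right in RFPpos, and the monocyte and blood endothelium lists lie to the left in RFPpos.

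The members did not peak in the same samples. RFPpos2 had the highest value of its group for 5 members (*Pf4*, *Cd163*, *Lyve1*, *F13a1* and *Ms4a7*), RFPpos5 for *Mrc1* and *Dab2*, RFPpos4 for *Cbr2* and *Ms4a6c*, and RFPpos3 for *Stab1*, while RFPpos1 was the highest for 0 members. Of the 10 members, 8 were detected in RFPpos1 and 10 in RFPpos3 and RFPpos4. Among the RFPneg samples, RFPneg1 was the highest for *Mrc1*, *Lyve1* and *Cbr2*, RFPneg2 for *Ms4a7*, *Stab1* and *Dab2*, RFPneg4 for *Pf4* and *Cd163*, RFPneg3 for *Ms4a6c* and RFPneg5 for *F13a1*. Mouse 2 had the highest summed share in each population (484 and 473 ppm).

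For the 2 members with the most counts, the genes with the most alike pattern over the 10 samples were sought among 4361 genes with at least 100 counts. Among them were *Anapc1* (Pearson r = 0.93), *Zfp36l1* (0.91), *Rasal2* (0.90), *Sc5d* (0.90) and *Myl12b* (0.90) for *Dab2*, and *Mt3* (0.92), *Arf3* (0.90), *Tmem60* (0.90) and *Slc25a51* (0.90) for *Ms4a6c*. These values describe the samples, which share mice and libraries, and the closest of so many genes has a high r at any rate. None of these named genes was itself called with edgeR, and none is another border macrophage gene of the lists.

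On GRCm38 (GENCODE M21), the members lie on 9 chromosomes, with *Ms4a7* (chr19:11321039-11336146, minus strand) and *Ms4a6c* (chr19:11469366-11482192, plus strand) on the same one. *Mrc1* is at chr2:14229392-14332057 (plus), *Pf4* at chr5:90772435-90773383 (plus), *Cd163* at chr6:124304656-124330527 (plus), *Lyve1* at chr7:110850607-110863239 (minus) and *Cbr2* at chr11:120729489-120732114 (minus). *F13a1* is at chr13:36867178-37050244 (minus), *Stab1* at chr14:31139013-31168641 (minus) and *Dab2* at chr15:6299788-6440712 (plus). The 3′ end of *Stab1* overlaps that of *Nt5dc2* on the other strand by 112 bases, and *Nt5dc2* had 13 counts in RFPneg and 2 in RFPpos. *BE692007* overlaps *Ms4a6c* on the other strand with 10 and 0 counts, and *Gm16311* overlaps *Dab2* with 0 counts. *Gm18888* also overlaps *Dab2* on the other strand, and its counts are not given here. Whether counting used the strand is not given in the sources used here, so the values of *Stab1*, *Ms4a6c*, *Dab2* and *F13a1*, which also overlaps genes on the other strand, carry that uncertainty. In the last 300 bases, where the tags fall, *Cbr2* is 93.4% identical to *Gm11771* over 301 aligned bases, which makes its counts uncertain although *Gm11771* had 0 counts. *Ms4a6c* is 82.6% identical to *Ms4a6b* over 311 bases (71 and 83 counts of *Ms4a6b*), and *Cd163* is 87.2% identical to *Slc17a5* over 133.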

How the data were processed

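Bulk QuantSeq 3′ FWD libraries of 10 samples, an RFPneg and an RFPpos sample from each of 5 mice, were analyzed. The 2 single-cell samples were not analyzed here. The authors ran the Lexogen FWD pipeline for unique molecular identifiers and deposited raw counts per gene. The genome build and annotation of these counts are not given in the sources used here. Symbols were found for 47224 of 47643 Ensembl identifiers in GENCODE M21. Reads on no gene (32.1% to 48.6% per sample; 34.9% ± 2.24 in RFPneg and 41.5% ± 4.27 in RFPpos, SD, n = 5 each) and ambiguous reads (0.295% to 0.436%) were left out of library sizes.

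Genes with at least 15 counts in all, 11103 of the 18571 with a count, were tested with edgeR 4.0.16 in R 4.3.3 (TMM, glmQLFit and glmQLFTest, mouse as a block), and p-values were Benjamini-Hochberg adjusted over all of them. The SE was taken from the fold change and its F statistic. The steps were tested on simulated data. The pairing comes from the mouse numbers in the labels and from the methods. Deviations of the paired samples from their group means had r of 0.11, −0.00183, 0.0548, 0.00406 and 0.0144 in mice 1 to 5. No 2 columns were identical.

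The members and lists were chosen with earlier results of these data known. Genes named were the members and, of each other list, the most abundant gene and up to 3 called genes per direction with the smallest p. *Igfbp4*, *Cd74*, *Pdpn*, *Zbtb46* and the genes given at 0 or few counts were named after their values were seen. Some genes that the rule takes in are not reported here. Alternatives were median-of-ratios, library-size and microglia-list scaling, other filters, the edgeR likelihood ratio test, DESeq2 1.42.0, limma-voom (limma 3.58.1), no block, other thresholds, thinned counts and each mouse left out.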

Additional observations from a re-analysis of the deposited data

Results flagged for a closer look

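Each marker and each list sum was examined for a sample far from the other 4 of its group, and 6 of 54 such groups had one. Chance alone marks about 1 in 20 groups. For the members, the *Cd163* level in RFPpos2 was 39.0 CPM beside 11.8 to 17.3 CPM in the other RFPpos samples, and the *Lyve1* level in RFPneg1 was 38.5 CPM beside 4.71 to 9.58 CPM in the other RFPneg samples. At 11 and 7 counts, both values rest on few tags.

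For the lists, the wider border macrophage genes summed to 4929 ppm of the gene counts in RFPpos1, below the 6141 to 6551 of the other RFPpos samples and inside the RFPneg range. The general macrophage list summed to 21087 ppm in RFPpos5, below 26182 to 28069 in the others. The monocyte list was at 44.8 ppm in RFPpos3, above 16.0 to 20.7 in the others, and the choroid plexus epithelium list was at 1629 ppm in RFPpos4, above 169 to 439 in the others.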

How the results depend on the processing

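Calls on the members rest on few counts, and a missed call does not show that a marker was equal in both populations. Scaled to the microglia list, 16 genes were called higher and 5495 lower, with 4 members lower, and *Mrc1* (−0.46), *Pf4* (−0.92) and *Stab1* (−0.55) changed sign. DESeq2 called 279 genes higher and 586 lower, with 0 members lower, and the likelihood ratio test called 641 genes higher and 1085 lower of 11103, with 2 members lower. With edgeR's stricter filter, which left 4210 genes and 4 members, 489 genes were lower. A fold change above 2-fold added to the threshold left 376 genes higher, and the same fold with an unadjusted p gave 540 genes higher and 1243 lower of 11103, with 2 members lower. Counts thinned to the smallest library gave 0 members lower. Leaving out each mouse in turn gave 375 to 533 genes higher, 668 to 794 lower, 0 members higher and 0 to 1 lower. There *Pf4* ranged from −0.17 (without mouse 2) to 0.52 and *Lyve1* from −0.68 to 0.18 (without mouse 1), each reversed at that end. Without the mouse as a block the paired fit's 577 and 911 genes became 581 and 917, with 0 members higher and 1 lower, and no member's call changed. For the members' summed share, the mean log2 ratio of −0.22 was −0.37 over all counts, −0.043 without *Stab1*, *Ms4a6c* and *Dab2*, and −1.27 over the microglia list. Of 130 alternative values of single members, 116 kept direction and call, 4 became called, 5 lost the call and 5 reversed. The cause of these shifts was not tested.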
